A study of Homo sapiens with 8 samples.

Results

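The clustered histone genes are the protein-coding genes whose GENCODE release 29 symbols begin with HIST1H, HIST2H, HIST3H or HIST4H. They number 71 of the 58735 genes counted. By the protein they encode, 6 belong to linker histone H1, 17 to H2A, 18 to H2B, 15 to H3 and 15 to H4. On chromosome 6 lie 55 of them, on chromosome 1 another 15, and on chromosome 12 the remaining 1. Their levels were measured in MOLM-13 cells, a human line of acute myeloid leukemia, by bulk RNA sequencing in a study of resistance to the alkylating drug busulfan. The groups used here are the vehicle cultures after 1, 3 or 5 courses of 1% DMSO, made alongside the busulfan cultures, and the parental cells before any course, with 1 library each. None of these cultures received busulfan, and the labels give no passage number for the DMSO cultures, against at most 20 passages for the parental line.

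Most histone protein of a dividing cell is made during S phase, when new DNA has to be packed into nucleosomes. H2A, H2B, H3 and H4 form the nucleosome core and H1 binds the linker DNA between cores. Messages of the clustered genes usually lack a poly(A) tail. They end just after a short stem-loop, which the stem-loop binding protein SLBP holds through processing, translation and decay. Some clustered genes also give longer messages that end at an ordinary poly(A) signal, a form reported in non-dividing and differentiating cells. Replacement histones such as H2A.Z and H3.3 lie outside the clusters and are polyadenylated. Preparation with the TruSeq RNA kit is all that the labels give, without a statement on poly(A) selection.

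The ends of the messages are shown first, since the results are ordered by them. The 16-base stem-loop was searched as GGNNCTTTTNAGNNCC in the sense strand of the GENCODE release 29 transcripts, and 31 of the 71 genes hold it in an annotated transcript. The other genes are mostly annotated without the bases that follow the coding region. Coding sequence alone is annotated for 33 of the 71. There were 5 exact forms, of which the commonest occurred in 17 genes. In these 26-base stretches, printed 5′ to 3′, the capitals mark the stem-loop. The 5 genes stand for the 5 forms and for types H2A, H2B and H4.

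HIST1H2AC: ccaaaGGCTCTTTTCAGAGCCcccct
HIST1H2BD: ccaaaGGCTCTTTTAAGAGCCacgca
HIST1H2AG: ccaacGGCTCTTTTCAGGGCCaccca
HIST1H4H: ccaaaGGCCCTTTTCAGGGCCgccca
HIST1H4I: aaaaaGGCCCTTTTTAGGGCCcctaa

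Beyond the stem-loop some models run on. A poly(A) signal end, meaning AATAAA or ATTAAA that starts 10 to 40 bases before a transcript's last base, is annotated for 22 of the 71 genes. The last 30 bases of 4 such transcripts follow, with the signal in capitals. HIST1H2AC and HIST2H2BE are the leading H2A and H2B genes with such an end, and HIST3H2A and HIST1H4H are the genes at 1 CPM that stood at least 2-fold from parental, on one side, in every DMSO library.

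HIST1H2AC: agcctggcatgaggtAATAAAaggtaatgc
HIST2H2BE: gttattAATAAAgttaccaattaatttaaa
HIST3H2A: tctgatATTAAAagtatttatgatctctaa
HIST1H4H: agaattgtgaaaaAATAAAtgtttaagcca

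In these transcripts the 3′ end lies far past the stem-loop, by 1114 bases in HIST1H2AC, 1729 in HIST2H2BE, 390 in HIST3H2A and 1655 in HIST1H4H. Independently of the annotation, 6 clustered genes known to give polyadenylated messages were taken as a list. They are HIST1H1C, HIST1H2AC, HIST1H2BC, HIST1H2BD, HIST1H2BK and HIST2H2BE. Of these, HIST1H1C and HIST1H2BK have coding-only models and so no annotated signal end, while 18 genes outside the list do have one. An end in the annotation shows where a model stops, and no reads over the ends were used here.

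The libraries held 56825811 (parental), 44795976 (DMSO course 1), 50855326 (course 3) and 45095954 (course 5) reads counted to genes. Reads that aligned to several places go to no gene. They made up 13.9% of reads in the parental library and 15.4%, 14.2% and 21.3% in courses 1, 3 and 5. All 8 myeloid markers were present at 1 CPM or more, summing to 2391, 3184, 2971 and 2289 CPM in the same order. CPM is the count scaled to a common library size with TMM factors. The 6 lymphoid markers summed to 5.97, 3.25, 0.378 and 0.439 CPM, with MS4A1 at 0. The 5 epithelial markers summed to 40.2, 20.3, 12.3 and 10.4 CPM, nearly all KRT8 and KRT18, with KRT19 at 0. The 5 fibroblast markers summed to 3.26, 2.95, 1.23 and 1.25 CPM, with COL3A1 and DCN at 0. Between the parental library and DMSO course 3 the last 3 marker lists and the summed clustered histone genes were both lower in course 3, and their part in the histone values was not tested.

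Clustered histone messages were scarce. All 71 genes together gave 123.1 CPM in the parental library and 218.2, 66.6 and 97.6 CPM in DMSO courses 1, 3 and 5. The 12 replacement histone genes gave 1464, 1400, 1542 and 1652 CPM. Only 14 clustered genes reached a mean of 1 CPM, and 5 reached 5 CPM. Counts were 0 in every library for 14 genes, 8 of them with fewer than 50% of their 50-base windows unique in the annotated transcripts. These include the near-identical pairs HIST2H2AA3 with HIST2H2AA4 and HIST2H4A with HIST2H4B, whose reads would align to both copies, so their values are uncertain. HIST1H3C, HIST1H4F, HIST1H4G, HIST3H3, HIST1H2AA and HIST1H2BA had 0 counts although every window is unique. A count of 0 allows up to 3 counts, or 0.051 CPM in the parental library and 0.070, 0.060 and 0.066 CPM in courses 1, 3 and 5.

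Of the 14 genes at 1 CPM, 10 have an annotated poly(A) signal end and 5 belong to the list of 6. CPM is not scaled to exon length, and coding-only models are short. Of those 33 genes, 2 reached 1 CPM, so passing 1 CPM does not compare message levels between genes with and without such an end. The 6 genes of the list held 73.6% of the clustered histone counts in the parental library, 80.2% in course 1, 67.8% in course 3 and 50.2% in course 5. HIST1H2AC alone held 45.4%, 55.8%, 37.5% and 24.5% in that order. The exact binomial 95% interval of the last share was 23.3 to 25.8%, for counting error only, and that of the first was 44.3 to 46.6%. Per kilobase of annotated exon, HIST1H2AC stood first with a mean of 33.97 CPM per kb, then HIST1H1C with 22.9 and HIST1H2BK with 15.1. The next, HIST1H2BD, had 6.24 CPM per kb. HIST1H1C and HIST1H2BK have coding-only models, of 642 and 381 bases. What such short models do to values on this scale was not tested.

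**Figure D1:**
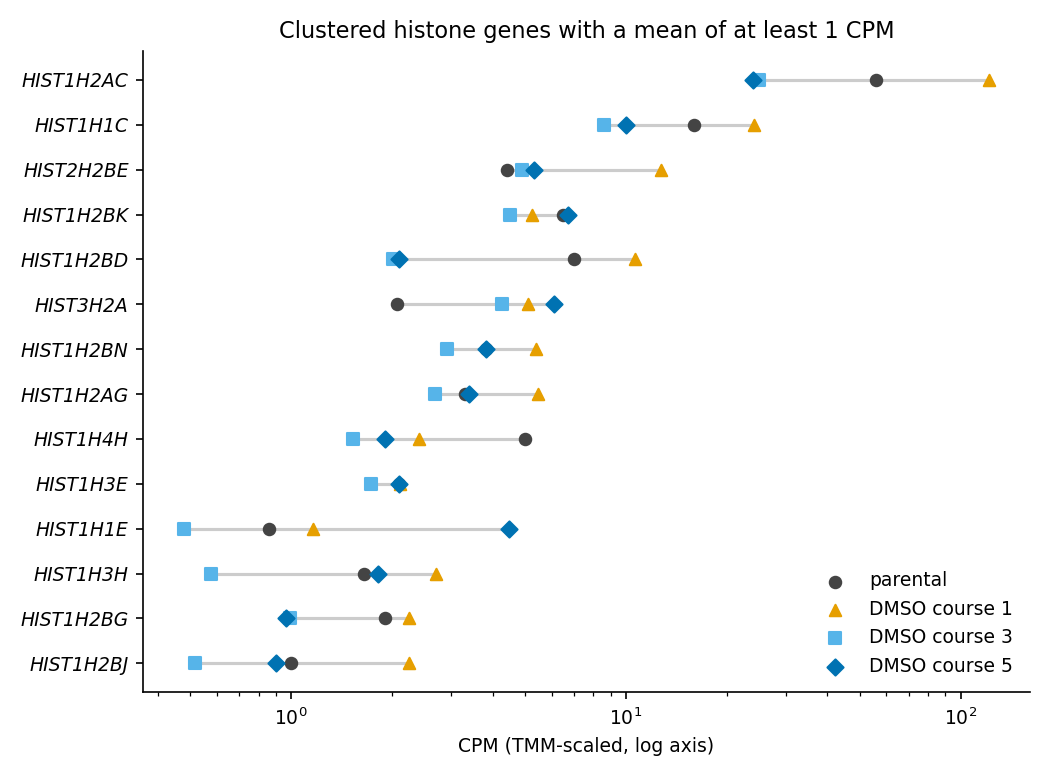
Levels in CPM (log axis) of the 14 clustered histone genes that averaged 1 CPM or more, 1 point per library, with the grey line spanning the 4 libraries. HIST1H2AC ranged between 23.9 and 121.8 CPM, and most genes were lowest in DMSO course 3 or 5. The points of HIST1H3E, between 1.73 and 2.11 CPM, partly hide each other.

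Of the 6 genes with known polyadenylated messages, HIST1H2AC, HIST1H1C and HIST1H2BD were above parental in DMSO course 1 and below it in courses 3 and 5. HIST1H2AC, an H2A gene, had 55.9 CPM in the parental library and 121.8, 25.0 and 23.9 CPM in DMSO courses 1, 3 and 5. Course 1 was above the parental library and both later courses below it. The log2 ratio to parental was 1.12 (95% counting interval 1.06 to 1.19) in course 1, -1.16 (-1.26 to -1.07) in course 3 and -1.22 (-1.32 to -1.12) in course 5. HIST1H1C, the gene of linker histone H1.2, had in the same 4 libraries 15.94, 24.18, 8.599 and 10.01 CPM. Its ratios to parental were 0.60, -0.89 and -0.67. HIST1H2BD, an H2B gene, had 6.98 CPM in the parental library and 10.6, 2.01 and 2.11 CPM in the courses. Its ratios were 0.61, -1.80 and -1.73, so the late courses were the part of its pattern past 2-fold.

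The remaining genes of that list did not share the whole pattern. HIST2H2BE, an H2B gene on chromosome 1, had 4.43 CPM in the parental library and 12.7, 4.90 and 5.31 CPM in the courses. It stood above parental in course 1 (1.52, interval 1.30 to 1.74), while the course 3 interval included no difference (-0.11 to 0.40). HIST1H2BK had 6.47, 5.24, 4.50 and 6.71 CPM and stayed within 2-fold throughout, with 25.9% of its windows unique. HIST1H2BC had 0.83, 0.42, 0.20 and 0.88 CPM, on 49, 18, 10 and 40 counts, and was lowest in course 3. Its course 5 ratio of 0.08 had an interval of -0.56 to 0.72. Over the 6 genes the sum was 90.6 CPM in the parental library and 175.0, 45.2 and 48.9 CPM in the courses. Without HIST1H2AC the other 5 summed to 34.6, 53.2, 20.2 and 25.0 CPM, the same order of libraries.

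HIST3H2A and HIST1H4H, both outside the list, stood on one side of parental in all 3 DMSO libraries. HIST3H2A, an H2A gene of the small cluster on chromosome 1, had 2.08 CPM in the parental library and 5.11, 4.26 and 6.12 CPM in the courses. Every DMSO library was above parental, by log2 ratios of 1.30, 1.03 and 1.56, and each counting interval lay above no difference. Scaling by total counts left the course 3 ratio just short of 2-fold. HIST1H4H, an H4 gene, had 5.00 CPM in the parental library and 2.41, 1.53 and 1.91 CPM in the courses. All 3 DMSO libraries were below parental, by log2 ratios of -1.05, -1.71 and -1.39. In the pooled fit HIST3H2A was 1.31 ± 0.40 (log2, SE) above parental and HIST1H4H was -1.36 ± 0.39, with edgeR quasi-likelihood adjusted p of 0.789 and 0.752.

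Other genes with an annotated poly(A) end ran in several orders. HIST1H2AG had 3.31, 5.48, 2.69 and 3.40 CPM and HIST1H2BN had 3.82, 5.41, 2.93 and 3.82 CPM in the parental library and courses 1, 3 and 5. In both genes course 1 was highest, and the sign of the course 5 ratio depends on the scaling. HIST1H3E, an H3 gene, stayed between 1.73 and 2.11 CPM. HIST1H3H, also H3, had 1.66, 2.71, 0.577 and 1.82 CPM, so course 3 was the low library. HIST1H2BJ had 0.997, 2.25, 0.518 and 0.900 CPM and was above parental by 1.18 in course 1 (interval 0.69 to 1.67). HIST1H4E, with 34, 22, 6 and 51 counts, was lowest in course 3 and highest in course 5.

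Genes without an annotated poly(A) end and outside the list of 6 followed another order, with course 5 on top of their sum. The 47 such genes summed to 10.97 CPM in the parental library and 14.18, 5.932 and 24.97 CPM in DMSO courses 1, 3 and 5. Only 2 of the 47 reached a mean of 1 CPM. With HIST1H1C and HIST1H2BK, all 49 genes without such an end summed to 33.38, 43.6, 19.03 and 41.69 CPM, with course 1 on top. HIST1H1E, the gene of linker histone H1.4, had 0.862, 1.16, 0.478 and 4.48 CPM. It was 2.38 (interval 1.93 to 2.85) above parental in course 5 on the log2 scale. HIST1H1B, the gene of H1.5, had 0.676, 0.673, 0.080 and 2.09 CPM, on 40, 29, 4 and 95 counts. HIST1H3I, an H3 gene, had 13, 16, 3 and 67 counts. All of these were lowest in course 3 and highest in course 5.

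The exceptions among these 47 genes, with 20 counts or more and the highest level in course 1, were HIST1H2BG and 4 H4 genes. HIST1H2BG, with a stem-loop in its model and no signal end, had 1.91, 2.25, 0.995 and 0.965 CPM and was lowest in course 5. HIST1H4I had 21, 48, 15 and 33 counts, highest in course 1. HIST4H4, the 1 gene on chromosome 12, had 26, 28, 21 and 18 counts. HIST1H4D had 23, 24, 4 and 12 counts, and HIST1H4K, with 0% of its windows unique, had 29, 26, 8 and 6. HIST4H4, HIST1H4D, HIST1H4K and the genes of the next sentence fall outside the rule for named genes and were chosen after their values were seen. HIST1H3B had 21, 22, 0 and 52 counts, HIST1H3F had 3, 2, 2 and 32, and HIST2H2AB had 0, 3, 2 and 26. These replication-type genes gave few reads, and the counts in course 5 make up most of their total.

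RNAs that are known to lack a poly(A) tail were set beside these genes. RN7SL2, the RNA of the signal recognition particle, had 4.11 CPM in the parental library and 5.27, 1.55 and 21.1 CPM in DMSO courses 1, 3 and 5. It was lowest in course 3 and highest in course 5. RN7SL2 has near-identical copies in the genome, so its level is uncertain. The other 29 RNAs of that list held 710 counts in the parental library and 596, 379 and 618 in the courses, and 7 of them had 0 counts throughout. Their sum in courses 1, 3 and 5 was 13.83, 7.544 and 13.56 CPM, with log2 ratios to parental of 0.21, -0.67 and 0.18. It was lowest in course 3, as for RN7SL2, but course 5 was not above course 1, so the high course 5 level was that of RN7SL2 and not of the sum of the rest. The part of tail-less RNA in the histone values was not tested, and how much such RNA each library let through cannot be told apart from the course.

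**Figure D2:**
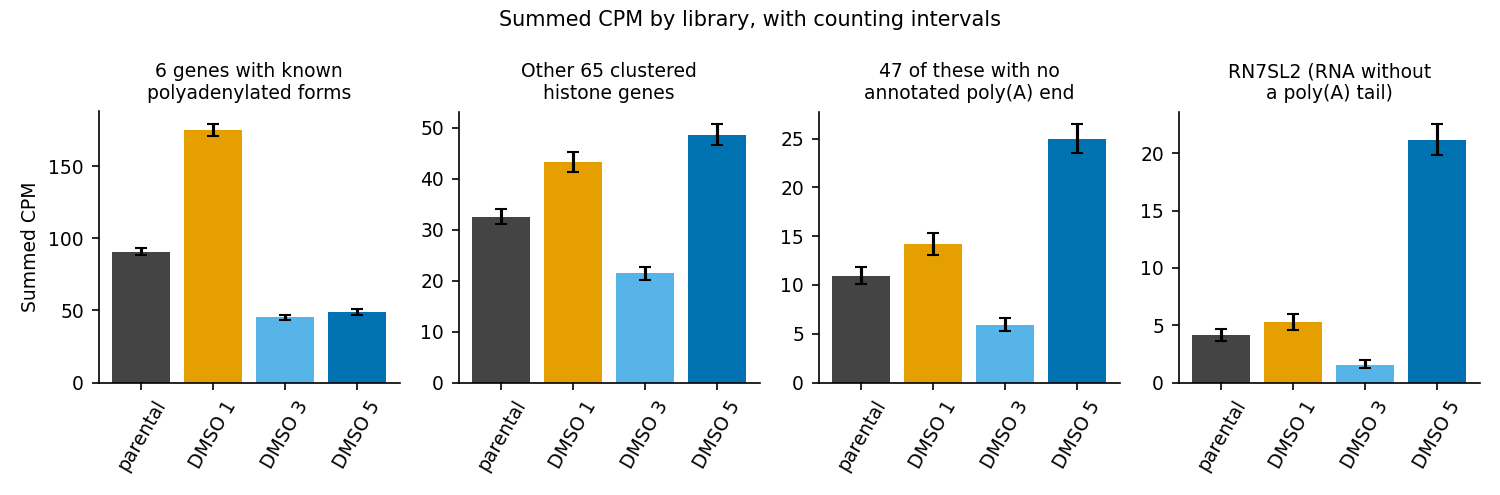
Summed CPM (bars) by library with exact Poisson 95% intervals for counting error, on separate linear axes. The 6 genes with known polyadenylated forms peak in DMSO course 1 at 175.0 CPM. The 47 genes outside that list without an annotated poly(A) end, and RN7SL2, peak in course 5 at 25.0 and 21.1 CPM. The other 29 RNAs without a poly(A) tail are not drawn. Their sum was 13.83 CPM in course 1 and 13.56 CPM in course 5, so it had no course 5 peak.

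H2A had the largest sum of the histone types in each library, through HIST1H2AC. H2A genes summed to 63.6 CPM in the parental library and 135.4, 33.86 and 39.98 CPM in courses 1, 3 and 5, and H2B genes to 28.8, 43.5, 17.8 and 25.8 CPM. H1 genes summed to 17.6, 26.5, 9.40 and 17.3 CPM. H4 genes gave 8.37, 6.75, 2.93 and 6.47 CPM and H3 genes 4.77, 6.10, 2.65 and 8.03 CPM. Every type was lowest in course 3. H4 was the 1 type below parental in course 1, by -0.31 on the log2 scale (interval -0.52 to -0.10), and that rests on HIST1H4H. Without HIST1H4H, an alternative chosen after seeing the data, the H4 sum was 4.34 CPM in course 1, against 3.36 CPM in parental cells. That is a log2 ratio of 0.37 (interval 0.07 to 0.66). Of 9 H4 genes with 20 counts or more, 4 were highest in course 1 and 4 in course 5, beside 31.8% and 30.2% of all genes. Nucleosome cores hold the 4 core types in equal amounts, so these unequal sums describe sequenced messages, not protein.

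Taking out the 6 genes with known polyadenylated forms changed the order most for H1 and H2A. The other H1 genes summed to 1.62 CPM in the parental library and 2.30, 0.796 and 7.33 CPM in the courses. Their log2 ratio in course 5 was 2.17 (interval 1.84 to 2.52), against -0.02 (-0.15 to 0.12) for all H1 genes. The other H2A genes summed to 7.672, 13.58, 8.878 and 16.04 CPM, with a course 5 ratio of 1.06 against -0.67 for all H2A genes. HIST3H2A and HIST1H2AG are among them. The other H2B genes stood at 10.1, 14.5, 6.17 and 10.7 CPM, near parental in course 5 (0.09, interval -0.09 to 0.26). H3 and H4 have no gene on the list of 6, so their values are the same in both views.

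**Figure D3:**
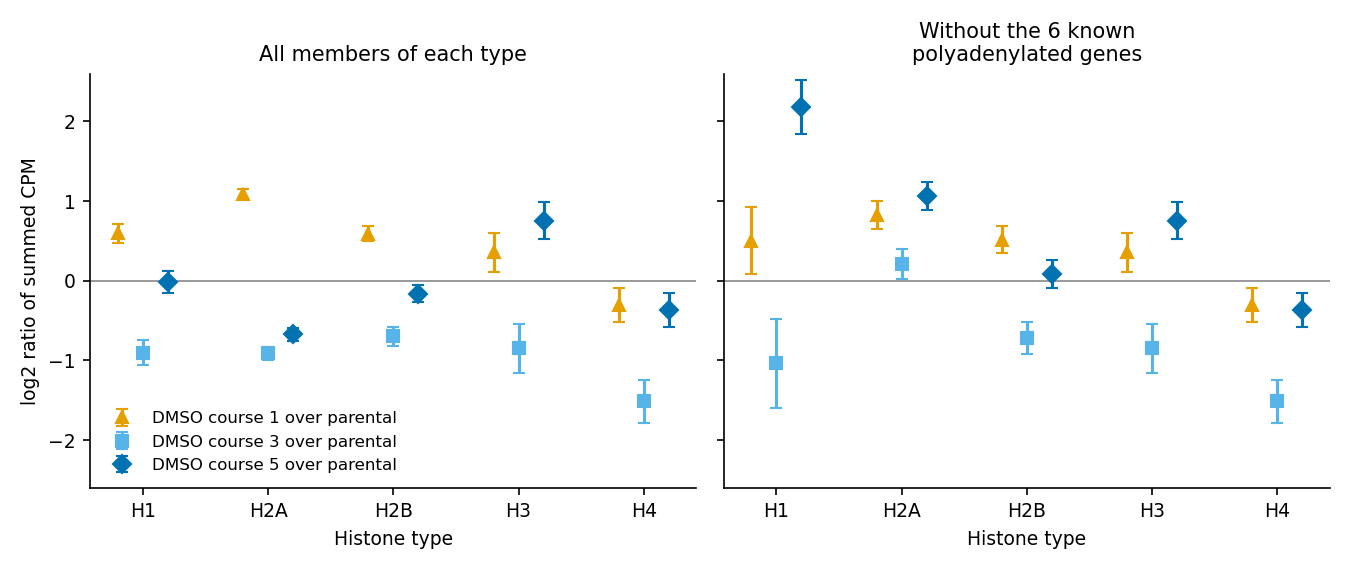
Log2 ratios of summed CPM over the parental library by histone type, with 95% counting intervals, for all members (left) and without the 6 genes with known polyadenylated forms (right). H1 in DMSO course 5 stood at -0.02 on the left and 2.17 on the right, while every type on the left was below 0 in course 3.

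Summed over all 71 genes, the log2 ratio to parental was 0.83 (0.78 to 0.87) in course 1, -0.89 (-0.95 to -0.83) in course 3 and -0.34 (-0.39 to -0.28) in course 5. The last value rests on HIST1H2AC, since without that gene the course 5 ratio was 0.13. For the 65 genes outside the list of 6 the ratios were 0.41, -0.60 and 0.58. Set against course 3, course 5 was 1.18 higher over these 65 genes and 0.12 higher over the 6. The 14 genes at 1 CPM had median ratios of 0.60, -0.87 and 0.00 in courses 1, 3 and 5, beside 0.02, 0.01 and 0.02 over 13589 genes at that level.

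Genes past 2-fold were counted for each pair of libraries. In course 1, 4 of the 14 were at least 2-fold above parental with an interval excluding no difference, namely HIST1H2AC, HIST2H2BE, HIST3H2A and HIST1H2BJ, beside 4.83% of all genes at 1 CPM. HIST1H4H was the 1 gene as far below, beside 5.7%. In course 3 the 1 gene above was HIST3H2A (3.56% of all genes) and the 4 below were HIST1H2AC, HIST1H2BD, HIST1H4H and HIST1H3H (4.13%). In course 5 the 2 above were HIST3H2A and HIST1H1E (4.24%) and the 3 below were HIST1H2AC, HIST1H2BD and HIST1H4H (7.32%). Between courses 3 and 1, 9 of the 14 were lower in course 3 (6.14%) and 0 higher (5.14%). Between courses 5 and 1, 6 were lower in course 5 (11.1%) and 1 higher (8.4%). Between courses 5 and 3, the late pair, HIST1H1E and HIST1H3H were higher in course 5 (0.368%) and 0 were lower (2.1%). A gene such as HIST1H1E passes the minimum of 1 CPM through its high library, so these counts describe the genes that passed and not the whole family.

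Most clustered genes were lowest in DMSO course 3. Of 47 clustered genes with at least 20 counts in all, 34 were lowest in DMSO course 3, beside 11.9% of all 19148 genes with as many counts. Course 3 was the highest library for 0 of the 47, beside 13%. Course 5 was the highest for 30 of the 47 (30.2% of all genes) and course 1 for 16 (31.8%). HIST1H4H was the 1 gene highest in the parental library (25.1%). A gene of low total can pass the minimum of 20 counts through its high library. The share highest in course 5 was smaller among members with at least 100 counts. All 7 H3 genes that had 20 counts were lowest in course 3, as were 11 of 15 H2B, 7 of 9 H4, 3 of 4 H1 and 6 of 12 H2A genes.

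Genes with and without an annotated poly(A) end were mostly highest in different libraries. Among 15 genes with an annotated poly(A) end, 10 were highest in course 1 and 4 in course 5. Among 32 without one, 6 were highest in course 1 and 26 in course 5. Both sets were mostly lowest in course 3, 11 of the 15 and 23 of the 32. The difference between the sets was not tested. For the 41 genes outside the list of 6, 28 were highest in course 5, beside 23.2% of 8145 genes with totals in the same range of 20 to 836 counts, and 30 were lowest in course 3, beside 16.9%. Course 3 was the highest library for 0 of the 41, beside 19%. Genes of low total reach 20 counts through their high library, and many of these genes share the same cluster on chromosome 6, so the genes are not independent measurements.

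**Figure D4:**
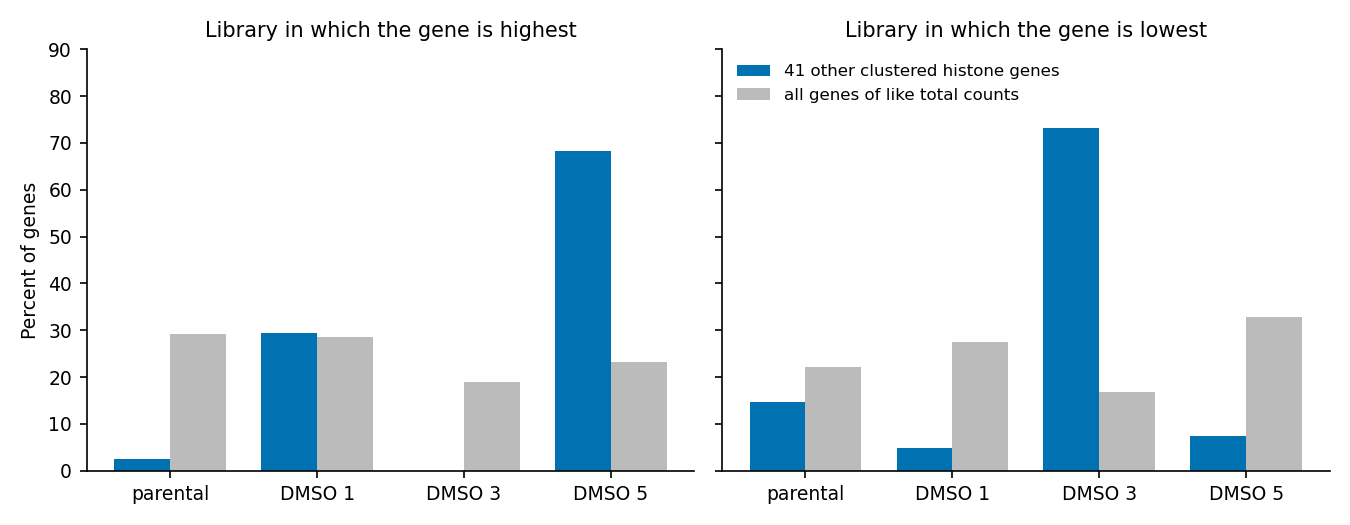
Percent of genes highest (left) and lowest (right) in each library, for the 41 clustered histone genes outside the list of 6 with at least 20 counts and for all genes with totals in the same range. Of the 41 genes, 68.3% were highest in DMSO course 5 and 73.2% lowest in course 3, and 0 were highest in course 3.

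H2A and H2B genes often lie head to head and share the DNA between their starts. In GENCODE release 29, 12 such pairs start within 1000 bases of each other or overlap at their starts. Partners gave unequal counts in some pairs and like counts in others. HIST1H2AC, 219 bases from HIST1H2BC, had 10904 counts over the 4 libraries, against 117 for HIST1H2BC. HIST1H2BK had 1141 counts, against 36 for its partner HIST1H2AH. HIST3H2A had 836, against 48 for HIST3H2BB, and HIST2H2BE had 1297, against 138 for HIST2H2AC. HIST1H2BN, with no place on the list of 6, had 780, against 39 for HIST1H2AK. These counts are not scaled to exon length. HIST1H2BN has 5477 bases of annotated exon, against 393 for HIST1H2AK, of whose windows 0% are unique. HIST2H2BE has 2194 bases, against 390 for HIST2H2AC, so unequal counts in these pairs need not mean unequal levels. HIST1H2BK and HIST1H2AH have 381 and 387 bases, HIST1H2AC and HIST1H2BC 1668 and 834, and HIST3H2A and HIST3H2BB 895 and 2364. HIST1H2AI and HIST1H2BL had 70 and 59 counts, and HIST1H2AJ and HIST1H2BM had 39 and 41. HIST1H2AI and HIST1H2AJ have 37.7% and 16.3% of their windows unique, against 89.1% and 100% for their partners. The likeness of these counts is therefore uncertain. HIST3H2BB, like HIST3H2A, had its lowest level in the parental library, with 9 counts there and 13, 10 and 16 in the courses.

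The promoters carry the family's known elements. RefSeq promoters of GRCh38.p14, running over 250 bases before to 50 bases after the start, matched 66 of the 71 genes. The octamer ATTTGCAT, which POU2F1 is known to bind, was searched on both strands and occurred in 68.8% of 16 H2A and 77.8% of 18 H2B promoters, against 1.8% of all 27305. It occurred in 7.69% of H3 promoters, which is 1 of 13, and in 0% of H1 and H4 promoters. That 1 promoter, matched to HIST1H3D, is the same stretch as the promoter matched to the H2A gene HIST1H2AD. CCAAT, on either strand, was present in 84.8% of the 66 promoters and 35.7% of all, with H4 the low type at 23.1%. TATAAA on the sense strand was present in 59.1%, against 7.71% of all. The 150 bases before the start are shown for 3 genes with different patterns over the libraries, with ATTTGCAT or its reverse complement ATGCAAAT, CCAAT or ATTGG, and TATAAA in capitals.

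HIST1H2AC, chr6:26124022-26124171, plus strand: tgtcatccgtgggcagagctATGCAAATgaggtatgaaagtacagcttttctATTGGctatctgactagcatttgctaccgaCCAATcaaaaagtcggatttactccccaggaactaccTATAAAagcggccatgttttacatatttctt
HIST3H2A, chr1:228457874-228458023, minus strand: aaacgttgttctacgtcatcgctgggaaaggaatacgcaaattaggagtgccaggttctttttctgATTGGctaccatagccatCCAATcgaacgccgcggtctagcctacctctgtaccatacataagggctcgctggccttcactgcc
HIST1H1E, chr6:26156179-26156328, plus strand: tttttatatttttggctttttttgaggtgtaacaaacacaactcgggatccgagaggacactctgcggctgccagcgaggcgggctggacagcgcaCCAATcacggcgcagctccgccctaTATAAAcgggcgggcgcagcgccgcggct

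HIST1H2AC, highest in course 1, has all 3 elements in this window. HIST3H2A, above parental in every DMSO library, has CCAAT on both strands and neither other motif. HIST1H1E, highest in course 5, has CCAAT and TATAAA. These matches describe letters and are not evidence of binding, and whether they go with a pattern over the libraries was not tested. Other genes of the list of 6 were also highest in course 1. Of these, HIST2H2BE has all 3 elements in its promoter, while HIST1H1C and HIST1H2BD have no octamer.

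Replacement histone genes, which are polyadenylated, ran in other orders over the libraries. H1F0, the gene of linker histone H1.0, had 44.4 CPM in the parental library and 103.0, 94.5 and 103.0 CPM in DMSO courses 1, 3 and 5. H1FX, another linker histone gene, had 65.6, 121.6, 137.3 and 143.6 CPM. Both were above parental in all 3 courses, with pooled log2 differences of 1.18 ± 0.23 and 1.03 ± 0.24 (SE) and edgeR quasi-likelihood adjusted p of 0.455 and 0.588. H2AFZ, the gene of H2A.Z, had 229.8, 121.3, 192.1 and 211.5 CPM, lowest in course 1, where HIST1H2AC was highest. H3F3B, a gene of H3.3, had 307.8, 305.0, 372.2 and 430.3 CPM. CENPA, the centromeric H3, had 11.6, 9.21, 8.64 and 7.31 CPM. H2AFX, the 1 replacement gene annotated with both a stem-loop and a signal end, had 82.9, 63.3, 63.5 and 58.3 CPM.

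Lists of genes around histone supply were lower in the DMSO libraries or close to parental. The 32 S-phase replication genes summed to 3901 CPM in the parental library and 2575, 2853 and 2826 CPM in the courses, with median log2 ratios of -0.70, -0.47 and -0.54. CDC6, which loads the replicative helicase, had 42.6, 16.5, 21.9 and 23.7 CPM, and FEN1, a flap nuclease, had 61.6, 27.4, 34.6 and 32.4 CPM. S-phase genes were lowest in course 1, where the summed clustered histone genes were highest. The 16 genes of G2 and mitosis summed to 1810, 1461, 1235 and 1126 CPM. In bulk RNA, fewer cells in S phase and less histone message per such cell cannot be told apart.

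Regulators of histone genes and messages, and a histone chaperone, ran in several orders over the libraries. NPAT, the co-activator at histone loci, had 27.9, 26.5, 29.7 and 30.7 CPM. E2F1, a cell-cycle transcription factor, had 38.2, 13.8, 23.9 and 21.2 CPM, and CCNE2, a cyclin of S-phase entry, had 32.4, 16.3, 20.3 and 18.5 CPM. SLBP, the stem-loop binding protein, had 70.3, 44.5, 63.3 and 69.6 CPM and was lowest in course 1. TUT7, a uridyltransferase of histone message decay, had 46.3, 73.4, 58.4 and 59.2 CPM. LSM11, of the U7 particle that cuts histone messages, had 13.9, 17.7, 17.5 and 13.9 CPM. NASP, a chaperone of H1 and H3, had 155.7, 106.2, 100.4 and 92.7 CPM. Medians over the 18 processing genes were -0.14, 0.15 and 0.19, and over the 21 chaperone genes at 1 CPM -0.47, -0.25 and -0.13.

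With all 4 libraries, edgeR and limma-voom called no clustered histone gene, and DESeq2 called 2 in the trend. With the 3 DMSO libraries pooled against parental, edgeR's quasi-likelihood test called 0 of 47 tested members and 0 of 18612 genes (0%) at an adjusted p of 0.05. At an unadjusted p under 0.05 there were 3 members among 1045 genes (5.61%). DESeq2 called 0 members of 211 genes (1.13%), and limma-voom called 0 of each. The trend over 0, 1, 3 and 5 courses called 0 members and 0 genes with edgeR (0%), 8 members among 2940 genes at an unadjusted p under 0.05 (15.8%), and 2 members among 880 genes with DESeq2 (4.73%). Those 2 were HIST1H2BD and HIST1H2AC, both with a falling slope, and limma-voom again called 0 of each.

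These outcomes depended on DMSO course 1 and, in the trend, also on the parental library. Without DMSO course 1, the pooled edgeR test called HIST1H2AC, HIST1H2BD and HIST1H4H lower and HIST3H2A higher than parental, 4 members among 1578 genes (8.59%). HIST1H2AC was then -1.19 ± 0.17 (log2, SE) with an adjusted p of 0.00154. The trend without course 1 called HIST1H2AC, HIST1H2BD, HIST3H2A, HIST1H1D and HIST2H2AB, 5 members among 2795 genes (15.2%). Without the parental library it called 4, HIST1H2AC, HIST1H2BD, HIST2H2BE and HIST1H1C, all with a falling slope, among 3642 genes (23.4%). These 3 fits tested 46, 46 and 22 members in the order given, each with 1 residual degree of freedom. Members were called at about the share of all genes in the pooled fit and below it in both trends. The calls are therefore no result about the family. With 1 library per course, and no label that calls the courses replicates, the p-values reflect the spread among these 4 libraries alone.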

How the data were processed

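Bulk RNA of MOLM-13 cells was sequenced on an Illumina HiSeq after TruSeq RNA library preparation, per the labels. Of 8 labelled samples, parental replicate 2 and the DMSO cultures of courses 1, 3 and 5 were used, and the other 4 were not analysed here. The authors deposited raw counts, 1 row for each Ensembl gene. Processing by the authors used TopHat2 2.0.11, HTSeq 0.6p1 and FastQC 0.11.5 with build hg19, per the submitters' processing notes. All 58735 gene IDs matched GENCODE release 29, whose own build is GRCh38, so which build was used for counting is not certain. Counting was set to reverse-stranded reads, as far as the deposited names tell. The 5 summary rows, with 24.6 to 29.8% of reads per library, were left out. Reads aligned to more than 1 place sit in such a row, so near-identical histone genes are undercounted.

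Counts were scaled with TMM to CPM and tested with edgeR 4.0.16 (R 4.3.3) over 18612 genes that passed filterByExpr (minimum count 10, minimum total 15), as DMSO against parental and as a slope over courses. Both fits had 2 residual degrees of freedom, or 1 with a library left out. They assume that the lone parental library varies like the DMSO libraries. DESeq2 1.42.0 and limma 3.58.1 (voom) were alternatives. The functions were tested on simulated data. Single libraries were compared by log2 ratios of CPM, with 95% intervals from the exact binomial, which cover counting error only. Genes counted as apart had a mean of at least 1 CPM, a ratio of at least 2-fold and an interval without a ratio of 1. Stem-loops, signal ends and overlaps came from GENCODE release 29, promoters from RefSeq on GRCh38.p14. Sums, medians, other scalings and leaving out each library were tried as well.

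The members and lists were chosen with earlier results of these data known. The rule named, per histone type, the 3 members with the highest mean CPM, up to 6 more in each direction, the 6 genes with known polyadenylated forms, the replacement histones at 1 CPM and up to 3 genes of each other list. Members named outside the rule, such as those at 0 counts and HIST1H1D, were chosen after their values were seen. Protein sequences were not used here. The result of 1 marker list is not reported here.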

Additional observations from a re-analysis of the deposited data

Results flagged for a closer look

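HIST1H2AC, the clustered histone gene with the most counts, stood on opposite sides of the parental level in different DMSO libraries. Course 1 was above it by a log2 ratio of 1.123, while courses 3 and 5 were below it, at -1.162 and -1.224, and the difference between the courses was not tested, since each is 1 library. HIST1H2AC held 55.8% of clustered histone counts in course 1 and 24.5% in course 5.

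Reads that aligned to several places belong to no gene and entered no comparison. They made up 21.33% of reads in DMSO course 5, above the 13.86% of the parental library. DMSO course 5 is also the library in which most low clustered histone genes and RN7SL2 were highest, and the part of these reads in that result was not tested.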

How the results depend on the processing

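No paired analysis was possible because each course has 1 library. Calls depended on single libraries. Leaving out 1 library gave 0 to 4 members called in the pooled comparison and 0 to 5 in the trend, with DMSO course 1 left out at the top of both, and DESeq2 called 2 in the trend. Scaling by total counts moves all ratios to parental by -0.11 (course 1), -0.08 (course 3) and -0.04 (course 5) on the log2 scale. It gave 0.71, 0.84 and 0.29 for the sums over all members, the 6 known polyadenylated genes and the other 65 in course 1. In course 3 it gave -0.96 for all members and -1.08 for the 6 genes. The median over members was then 0.49 in course 1, -0.95 in course 3 and -0.040 in course 5, a change of sign. With total counts the members at least 2-fold higher in course 3 numbered 0, and those lower numbered 6 in course 3 and 4 in course 5. Course 5 medians also turned to -0.67 at a minimum of 5 CPM and to -0.000496 over genes with at least 50% unique windows, so the median of course 5 has no stable sign. With a prior count of 2 and no minimum, the medians were 0.46, -0.79 and 0.69. At 5 CPM, where 5 members remain, 2 were higher and 0 lower in course 1, 0 higher and 2 lower in course 3 and 0 higher and 2 lower in course 5, against parental. At that level 4 were lower in course 3 than in course 1, and 0 were higher in course 5 than in course 1 or course 3. Without HIST1H2AC the sum over all members was 0.52, -0.69 and 0.13 above or below parental in courses 1, 3 and 5, the last a change of sign, and that of the known genes 0.62, -0.78 and -0.47, with 0.31 for course 5 over course 3. Of the other genes, those without an annotated poly(A) end gave -0.89 in course 3, 1.19 in course 5 and 2.07 for course 5 over course 3. Among 24 members with at least 100 counts, 18 were lowest in course 3 and 10 highest in course 5. Over all genes with at least 20 counts, these shares were 11.9% and 30.2%. Without HIST1H4H the H4 sum gave 0.37 in course 1, against -0.31, and 0.44 in course 5, against -0.37. These last 4 settings were chosen after seeing the data. Single genes whose sign changed lay near no difference, HIST1H3E at -0.10 in course 1 and -0.036 in course 5 and HIST1H2AG at -0.005037 in course 5 with total counts, and HIST1H2BN at 0.008804 in course 5 with DESeq2 size factors. The cause was not tested. In 100 further checks of comparisons and 121 of single genes, the direction held, and counts stayed within 1.5 times those in the report.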
